A study of Mus musculus with 13 samples.

Results

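The genes described here are 10 regulators of mitochondrial biogenesis and dynamics: Ppargc1a, Ppargc1b, Nrf1, Esrra, Tfam, Tfb2m, Mfn1, Mfn2, Opa1 and Dnm1l. They are listed by name, with no threshold on their values, and are 10 of the 24015 genes in the expression table. RNA of whole quadriceps muscle of C57BL/6 mice was sequenced in 13 libraries of 4 groups. Aged mice of batch 2 received SW033291 (3 libraries, replicates 1, 4 and 6) or vehicle (3 libraries, replicates 2, 3 and 8). In batch 1, aged mice (3 libraries, replicates 2, 3 and 4) and young mice (4 libraries, replicates 1, 3, 4 and 5) received vehicle. SW033291 inhibits 15-PGDH, an enzyme that starts the breakdown of prostaglandins, and was injected into the abdomen each day at 5 mg/kg for 4 weeks. The vehicle of ethanol, Cremophor EL and dextrose in water was given in the same way. Young mice were 3 months old and aged mice were labelled as over 24 months. All groups share the strain and the injections, and the labels give neither the sex nor whether each library came from a mouse of its own, so p-values measure only the spread between these libraries.

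Mitochondrial biogenesis is the making of new mitochondrial mass, and it needs genes of the nucleus and of the mitochondrial DNA to be read together. The coactivators PGC-1alpha and PGC-1beta bind transcription factors such as NRF1, GABP and the estrogen-related receptors on nuclear genes of oxidative metabolism. Among those genes are Tfam and Tfb2m, whose products enter the mitochondrion and start transcription of its DNA. Mitochondria also fuse and divide: mitofusins join the outer membranes, OPA1 joins the inner membranes, and the dynamin-related protein DRP1 constricts the organelle until it divides. In skeletal muscle this network is known for its response to exercise and fasting and for the high mitochondrial content of oxidative fibres.

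Promoters are shown for Opa1 and Tfam, the pair of regulators whose levels were most alike over the libraries. Mfn1 is added as the regulator that passed a test, which was between the batches and not with age in batch 1 or SW033291. Each line is the 250 bases before the start of the RefSeq model on GRCm38.p6, 5′ to 3′ on the strand of the gene, with the last base at position -1. They lie at chr16:29579084-29579333 on the plus strand for Opa1, at chr3:32529232-32529481 on the plus strand for Mfn1 and at chr10:71238045-71238294 on the minus strand for Tfam. For Mfn1 and Tfam the RefSeq gene begins upstream of this start, so part of each stretch may be transcribed. Capitals mark a match to the NRF1 motif, in which 1 inner base may be any, in Opa1, and to CCGGAAG, the core that GABP binds, in Mfn1 and Tfam.
Opa1: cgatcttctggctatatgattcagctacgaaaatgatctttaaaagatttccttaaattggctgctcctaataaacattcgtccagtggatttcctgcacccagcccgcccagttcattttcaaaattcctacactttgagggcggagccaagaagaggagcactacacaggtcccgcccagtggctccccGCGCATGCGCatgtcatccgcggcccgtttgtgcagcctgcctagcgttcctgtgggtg
Mfn1: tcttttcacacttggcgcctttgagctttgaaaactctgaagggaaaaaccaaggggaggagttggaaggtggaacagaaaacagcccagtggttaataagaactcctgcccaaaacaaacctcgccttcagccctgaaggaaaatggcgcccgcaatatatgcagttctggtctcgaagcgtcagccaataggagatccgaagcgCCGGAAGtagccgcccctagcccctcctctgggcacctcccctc
Tfam: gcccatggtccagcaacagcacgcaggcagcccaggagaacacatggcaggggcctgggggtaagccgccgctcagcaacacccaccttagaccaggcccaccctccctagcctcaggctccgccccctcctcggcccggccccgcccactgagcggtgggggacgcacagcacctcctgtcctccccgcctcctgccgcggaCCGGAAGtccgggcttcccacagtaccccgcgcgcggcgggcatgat

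The Opa1 match lies at positions -59 to -50, the Mfn1 match at -44 to -38 and the Tfam match at -47 to -41. In a window of 250 bases before and 50 after the start, searched on both strands, the NRF1 motif was found in 4.60% and CCGGAAG in 8.86% of the 32851 promoters of the RefSeq table. Promoters were read for 9 of the 10 regulators, and 4 of these held a match, the other being Dnm1l with CCGGAAG on the opposite strand at 12 to 18 after its start. TNAAGGTCA, the motif of the estrogen-related receptors, and AAGATGGC, that of YY1, occur in 1.28% and 2.75% of all promoters and matched in none of the 9. The percentages are per promoter and per motif. The share of all genes with any match was not counted, so 4 of 9 has no baseline here. The 4 motifs do not contain each other, and a match describes letters, not binding.

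Values are TPM, a share of all transcripts of a library per transcript length. TPM keep no record of reads, so the depth behind each value is not known and counting error could not be given. The tissue label was met by its markers: 8 genes of muscle fibres summed to 111400 to 162300 TPM per library, and Ucp1, which defines brown fat, was at 0 in 12 of 13 libraries and at 1.13 TPM in the other. One library stood apart. Its title, Aged4, also has another form than those of the rest of its group, AV2 and AV3. Aged vehicle replicate 4 of batch 1 had a correlation across genes of 0.952 and 0.947 with the other libraries of its group, where they had 0.987 with each other. Its 7 neutrophil markers summed to 1711 TPM, against 0.12 and 3.71 TPM in the rest of its group and at most 1.22 TPM in young muscle, and its fibre markers had the lowest sum of the 13 libraries. In batch 2, vehicle replicate 2 reached 740 TPM and SW033291 replicate 4 reached 220.5 TPM for the neutrophil markers, against 4.23 to 14.5 TPM in the other 4 libraries.

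The coactivators were low. Ppargc1a, which encodes PGC-1alpha, stood at 7.24, 9.93 and 8.87 TPM in SW033291-treated muscle, at 8.39, 13.1 and 7.18 TPM in aged vehicle muscle of batch 2, at 5.08, 5.43 and 9.71 TPM in aged vehicle muscle of batch 1 and at 4.98, 6.39, 5.44 and 7.45 TPM in young vehicle muscle. The groups overlap. Young replicates 1, 3 and 4 and aged vehicle replicates 2 and 3 of batch 1 lie below all 6 libraries of batch 2. Ppargc1b, which encodes PGC-1beta, stood at 1.68, 1.70 and 0.90 TPM with SW033291, at 2.31, 2.93 and 1.18 TPM in aged vehicle muscle of batch 2, at 2.55, 2.65 and 3.01 TPM in aged vehicle muscle of batch 1 and at 3.28, 2.70, 1.93 and 2.69 TPM in young vehicle muscle. It was the lowest of the 10 regulators in all 13 libraries, and the treated libraries overlap the vehicle libraries of their batch through vehicle replicate 8.

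The nuclear transcription factors differed from each other in level and in spread. Nrf1, a factor for genes of the respiratory chain and of mitochondrial import, stood at 7.40, 6.15 and 7.96 TPM with SW033291, at 8.66, 12.7 and 7.17 TPM in aged vehicle muscle of batch 2, at 6.07, 7.0 and 8.39 TPM in aged vehicle muscle of batch 1 and at 5.82, 6.85, 6.61 and 6.19 TPM in young vehicle muscle. One library, vehicle replicate 3 of batch 2, lies above all others. Esrra, which encodes the estrogen-related receptor alpha, stood at 97.4, 87.9 and 91.6 TPM with SW033291, at 94.1, 87.8 and 101.6 TPM in aged vehicle muscle of batch 2, at 84.1, 91.0 and 86.4 TPM in aged vehicle muscle of batch 1 and at 102.4, 88.6, 84.2 and 89.5 TPM in young vehicle muscle. Its highest library was 1.22 times its lowest, the narrowest range of the 10 regulators, and its 4 groups overlap.

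The factors of mitochondrial DNA stood between these. Tfam, which packs mitochondrial DNA and opens its promoters, had 28.1, 26.1 and 24.3 TPM with SW033291, 30.1, 31.6 and 27.6 TPM in aged vehicle muscle of batch 2, 22.9, 21.8 and 31.0 TPM in aged vehicle muscle of batch 1 and 21.0, 24.2, 23.6 and 21.6 TPM in young vehicle muscle. The vehicle libraries of batch 2 lie above all 4 young libraries and above aged replicates 2 and 3 of batch 1. Aged replicate 4 of batch 1 lies among the vehicle libraries of batch 2. Tfb2m, the factor that lets the mitochondrial RNA polymerase melt the promoter, had 46.4, 40.6 and 52.5 TPM with SW033291, 46.3, 55.2 and 47.2 TPM in aged vehicle muscle of batch 2, 50.4, 50.9 and 66.5 TPM in aged vehicle muscle of batch 1 and 46.5, 55.0, 47.1 and 46.9 TPM in young vehicle muscle. Tfb2m was the fourth highest regulator in all 13 libraries, at a mean of 50.1 TPM over them.

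Among Mfn1, Mfn2, Opa1 and Dnm1l, the mitofusins were the most abundant. Mfn2 had 248, 311 and 274.5 TPM with SW033291, 324, 324 and 299 TPM in aged vehicle muscle of batch 2, 230.3, 300.2 and 211 TPM in aged vehicle muscle of batch 1 and 299, 280.1, 236 and 242 TPM in young vehicle muscle. It was the highest regulator in all 13 libraries, and its mean of 275 TPM over them lay above 96.4% of the 11876 genes tested. Mfn1 had 113, 123 and 97.2 TPM with SW033291, 109.8, 135 and 99.4 TPM in aged vehicle muscle of batch 2, 69.3, 81.9 and 83.1 TPM in aged vehicle muscle of batch 1 and 81.5, 84.0, 79.2 and 78.3 TPM in young vehicle muscle. All 6 libraries of batch 2 lie above all 7 of batch 1, and the share of all tested genes parted in this way was not counted.

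Opa1, the dynamin-like protein of inner membrane fusion and cristae, had 28.7, 32.2 and 31.9 TPM with SW033291, 42.8, 43.4 and 32.5 TPM in aged vehicle muscle of batch 2, 24.5, 26.2 and 42.1 TPM in aged vehicle muscle of batch 1 and 24.6, 28.6, 24.5 and 27.3 TPM in young vehicle muscle. The treated and vehicle libraries of batch 2 do not overlap, but vehicle replicate 8 at 32.5 TPM and treated replicate 4 at 32.2 TPM stand next to each other. Dnm1l, which encodes DRP1, had 21.2, 26.4 and 24.6 TPM with SW033291, 30.9, 38.5 and 24.9 TPM in aged vehicle muscle of batch 2, 24.1, 25.5 and 45.8 TPM in aged vehicle muscle of batch 1 and 25.5, 30.5, 28.3 and 32.0 TPM in young vehicle muscle. For Dnm1l, aged vehicle replicate 4 of batch 1 is the highest of the 13 libraries. The other aged libraries of that batch stand at the level of the lowest young library.

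**Figure D1:**
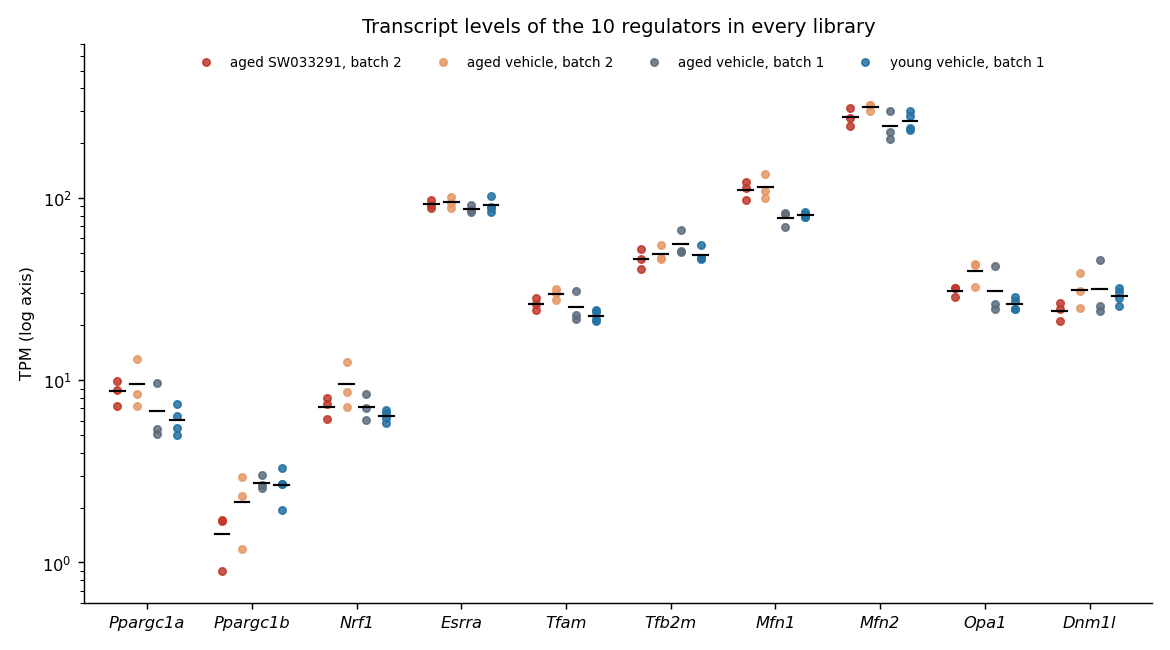
Each point is the TPM (log axis) of a regulator in 1 library, with groups side by side and bars at the group means. Mfn2 lies highest and Ppargc1b lowest in every library. Mfn1 separates the libraries of batch 2 (97.2 to 135 TPM) from those of batch 1 (69.3 to 84.0 TPM), and the share of all tested genes that do so was not counted.

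The order of levels was nearly fixed. Over the 13 libraries the means were 275 TPM for Mfn2, 94.9 for Mfn1, 91.3 for Esrra, 50.1 for Tfb2m, 31.5 for Opa1, 29.1 for Dnm1l, 25.7 for Tfam, 7.63 for Ppargc1a, 7.46 for Nrf1 and 2.27 for Ppargc1b. Neighbours changed places only within Mfn1 and Esrra, within Opa1, Dnm1l and Tfam, and within Ppargc1a and Nrf1, and their ranges over libraries overlap. Within groups the SD of log2(TPM + 1) was 0.095 for Esrra, smaller than that of all but 2.12% of tested genes, and 0.33 for Ppargc1a, with a median of 0.25 over all tested genes. All 10 regulators passed the filter of 1 TPM in at least 3 libraries, and Ppargc1b reached 1 TPM in 12 of 13.

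Age was compared within batch 1, where aged and young muscle both received vehicle. None of the 10 regulators was higher or lower in aged than in young muscle by limma at an adjusted p of 0.05 (0 of 10), where 54 of 11876 tested genes passed (0.455%). At unadjusted p-values under 0.05 there were 0 of 10, against 9.92% of all tested genes. No regulator had aged and young libraries that did not overlap, against 11.6% of all tested genes. In whole muscle, fewer cells of a type and less RNA per cell cannot be told apart.

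For Ppargc1a the mean was 6.74 ± 2.58 TPM in aged muscle (SD, n = 3) and 6.07 ± 1.09 TPM in young muscle (SD, n = 4). The difference in log2(TPM + 1) was 0.10 with a 95% interval of -0.41 to 0.60 (limma adjusted p = 0.947), which runs from 0.754-fold to 1.51-fold on the TPM + 1 scale. Tfb2m had the lowest p of the 10, with 55.9 ± 9.17 TPM in aged muscle and 48.9 ± 4.09 TPM in young muscle, a difference of 0.18 (SE 0.13, limma adjusted p = 0.734). The interval was narrowest for Esrra, at -0.27 to 0.14. The median difference of the 10 was 0.08, beside 0.06 for all tested genes.

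These values depend on aged replicate 4. It was the highest library of batch 1 for 6 of the 10 regulators, Ppargc1a, Tfam, Tfb2m, Nrf1, Opa1 and Dnm1l, and for 40.3% of all tested genes, and the lowest for Mfn2. It is also the library with 1711 TPM of neutrophil markers, and the part of that in these levels was not tested. Without it the median difference of the 10 regulators was -0.03, the differences of Ppargc1a, Opa1 and Dnm1l turned to -0.16, -0.05 and -0.22, and those of Tfam, Ppargc1b and Mfn2 also changed sign, all 3 within 0.02 of 0. The count of regulators called stayed at 0, and that of all tested genes was 92. The authors' deposited table for age holds none of the 10. It lists 813 genes with an adjusted p of at most 0.0999, beside 24015 genes in the expression table.

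**Figure D2:**
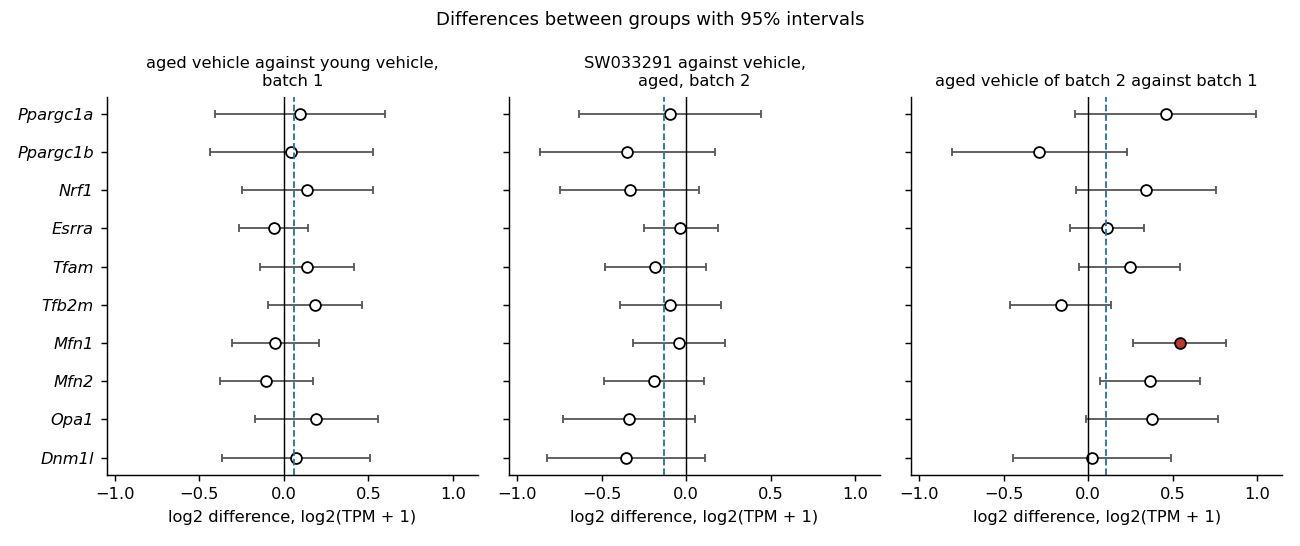
Points are the differences in log2(TPM + 1) of each regulator in the 3 comparisons, bars the 95% intervals of limma, the dashed line the median of all tested genes, and a filled point an adjusted p of at most 0.05. The intervals span 0 for all 10 regulators with age and with SW033291, and Mfn1 alone is filled, between the batches.

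SW033291 was compared with vehicle in aged muscle of batch 2. No regulator passed (0 of 10 by limma), and neither did any of the 11876 tested genes (0%). At an unadjusted p under 0.05 the counts were 0 of 10 and 1221 of all tested genes (10.3%). In the authors' deposited table none of the 10 had an unadjusted p under 0.05, and the share of all its genes was not counted. All 10 differences were negative, with a median of -0.19, but the median of all tested genes was -0.13 and 4 of the 10 lay above it. Under median-of-ratios scaling or quantile normalization, the signs of Ppargc1a, Tfb2m, Esrra and Mfn1 turned positive. Without vehicle replicate 8 the median of the 10 was -0.25 and 4 of the 10 had unadjusted p-values under 0.05, against 13.5% of all tested genes in that fit, but none passed after adjustment.

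Opa1 had the lowest p, with 30.9 ± 1.96 TPM with SW033291 and 39.6 ± 6.15 TPM with vehicle (SD, n = 3 each). Its difference was -0.34 (SE 0.18, 95% interval -0.73 to 0.05, limma adjusted p = 0.535). It was the 1 regulator of 10 whose treated and vehicle libraries did not overlap with the treated lower, against 15.1% of all tested genes. In the authors' deposited table its log2 difference was -0.21 (SE 0.16, unadjusted p = 0.176), also the lowest p of the 10. That table gave positive differences for Mfn1 (0.13), Esrra (0.10) and Tfam (0.02), which were negative by limma. Dnm1l averaged 24.1 ± 2.62 TPM with SW033291 and 31.4 ± 6.82 TPM with vehicle, a difference of -0.36 (SE 0.22, limma adjusted p = 0.566).

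Ppargc1a averaged 8.68 ± 1.35 TPM with SW033291 and 9.57 ± 3.15 TPM with vehicle, a difference of -0.10 with an interval of -0.63 to 0.44 (limma adjusted p = 0.891). Ppargc1b averaged 1.43 ± 0.456 TPM with SW033291 and 2.14 ± 0.887 TPM with vehicle, a difference of -0.35 (SE 0.24, limma adjusted p = 0.612). At such low levels log2(TPM + 1) understates a change, and the authors' deposited table gave -0.67 (SE 0.53, unadjusted p = 0.205) on their own scale. Mfn1 and Esrra had the smallest differences, -0.04 and -0.03, and the intervals of -0.31 to 0.23 and -0.25 to 0.19 bound them. Nrf1 averaged 7.17 ± 0.927 TPM with SW033291 and 9.5 ± 2.84 TPM with vehicle, a difference of -0.33 (SE 0.19, limma adjusted p = 0.552).

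Vehicle replicate 3 had the highest level of batch 2 for 9 of the 10 regulators, all but Esrra, for which it was the lowest, while it was highest for 29.2% of all tested genes. Without it the median difference of the 10 between SW033291 and vehicle was -0.13. Markers of slow and oxidative fibres, which are rich in mitochondria, summed to 473, 1152 and 275 TPM in the treated libraries and to 1224, 995 and 317 TPM in the vehicle libraries 2, 3 and 8, and their part in these levels was not tested. Vehicle replicate 2, with the highest sum, was the highest of batch 2 for none of the regulators. It stood next below vehicle replicate 3 for Ppargc1b, Tfam, Nrf1, Mfn2, Opa1 and Dnm1l. Treated replicate 4, with the highest treated sum, was the lowest of batch 2 for Tfb2m and Nrf1. It was the highest treated library for Ppargc1a, Ppargc1b, Mfn1, Mfn2, Opa1 and Dnm1l. Vehicle replicate 8, with the lowest vehicle sum, was the lowest vehicle library for all regulators but Tfb2m and Esrra. Vehicle replicate 8 was the vehicle library nearest the treated ones for Opa1, Dnm1l and Ppargc1b.

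**Figure D3:**
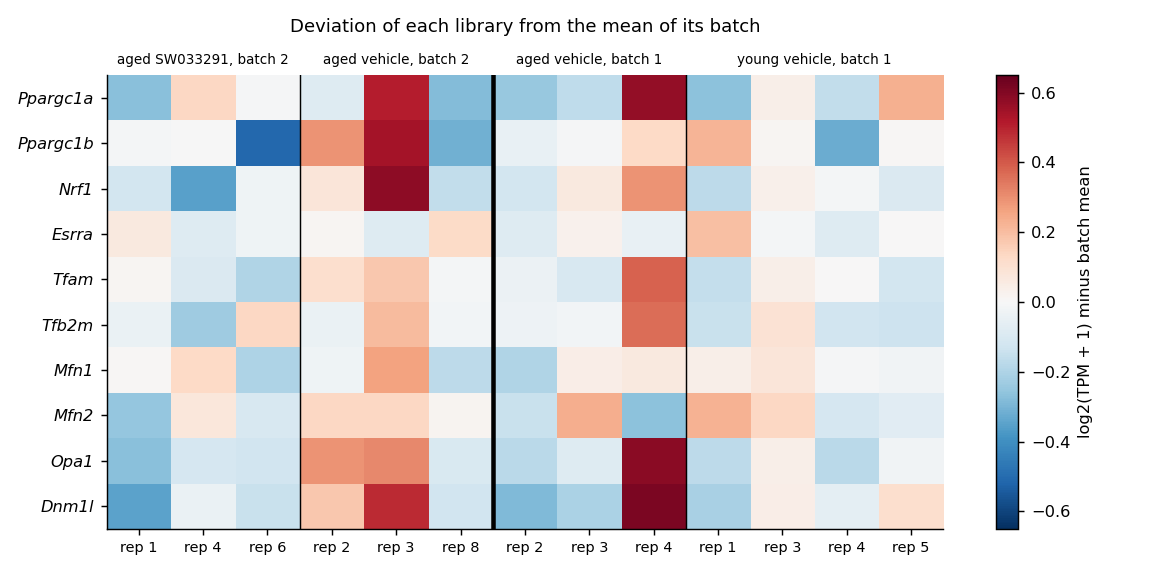
Colours give the log2(TPM + 1) of each regulator in each library minus the mean of its batch (red above, blue below), with libraries in columns by group. Vehicle replicate 3 of batch 2 and aged vehicle replicate 4 of batch 1 stand out as columns of mostly high values. Their median deviations are 0.29 and 0.33, against 0.102 and 0.115 for all tested genes. Esrra lies below the batch mean in both, and Mfn2 in aged vehicle replicate 4 of batch 1.

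Aged vehicle muscle was present in both batches, so that batch 2 could be set against batch 1 at the same labelled age and treatment. Mfn1 was higher in batch 2, at 114.6 ± 18.1 TPM in batch 2 and 78.1 ± 7.64 TPM in batch 1 (SD, n = 3 each). The difference was 0.54 (SE 0.13, 95% interval 0.27 to 0.81, limma adjusted p = 0.0446), about 1.46-fold. It was the 1 of 10 regulators that passed, where 267 of 11876 tested genes did (2.25%), and the 1 whose libraries did not overlap with batch 2 higher, against 11.9% of all tested genes. At unadjusted p-values under 0.05 there were 2 of 10, Mfn1 and Mfn2, against 18.1% of all tested genes. Without aged vehicle replicate 2 or 3 of either batch the adjusted p of Mfn1 was between 0.0672 and 0.199, and with only these 6 libraries in the fit it was 0.349. Over its 15 alternatives the adjusted p ran from 0.0147 to 0.349 and the difference from 0.40 to 0.68.

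Mfn2 averaged 316 ± 14.6 TPM in batch 2 and 247 ± 46.8 TPM in batch 1, a difference of 0.37 (SE 0.14, unadjusted p = 0.0186, limma adjusted p = 0.177). Ppargc1a differed by 0.46, Opa1 by 0.38, Nrf1 by 0.34 and Tfam by 0.25, with limma adjusted p between 0.296 and 0.374. Dnm1l was near 0 at 0.02, and Tfb2m and Ppargc1b had negative differences of -0.16 and -0.29. The median difference of the 10 was 0.29, beside 0.11 for all tested genes. Without aged replicate 4 of batch 1, 3 regulators passed: Mfn1 with 0.59, Opa1 with 0.61 and Tfam with 0.40 (limma adjusted p = 0.0147, 0.0134 and 0.0369), against 13.8% of all tested genes in that fit. Over all alternatives the adjusted p of Opa1 reached 0.695 and that of Tfam 0.754. Young muscle was labelled batch 1 only and treated muscle batch 2 only, and the labels do not say what a batch is. For a level set across the batches, batch and age or treatment therefore cannot be told apart.

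Ratios of regulators within a library do not depend on the scaling of that library, and 4 were taken after the levels had been seen, as a description with no test. The Opa1/Dnm1l ratio of TPM was 1.29 ± 0.0654 with SW033291 and 1.27 ± 0.133 in aged vehicle muscle of batch 2, and 0.987 ± 0.0586 in aged vehicle muscle of batch 1 and 0.904 ± 0.0546 in young vehicle muscle (SD). The libraries of batch 2, at 1.13 to 1.39, lay above all of batch 1, at 0.853 to 1.03, and replicate 4 with its high Opa1 and Dnm1l was within the range of its batch. The Ppargc1a/Ppargc1b ratio also did not overlap between batches, with 3.63 to 9.86 in batch 2 and 1.52 to 3.23 in batch 1. How often ratios of other gene pairs part the batches in this way was not counted. The Tfb2m/Tfam ratio was 1.54 to 1.75 in aged vehicle muscle of batch 2 and 2.15 to 2.34 in that of batch 1, and the SW033291 libraries ran from 1.55 to 2.17. The Mfn2/Mfn1 ratio overlapped between the batches. Within each batch the 2 groups overlapped for all 4 ratios.

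**Figure D4:**
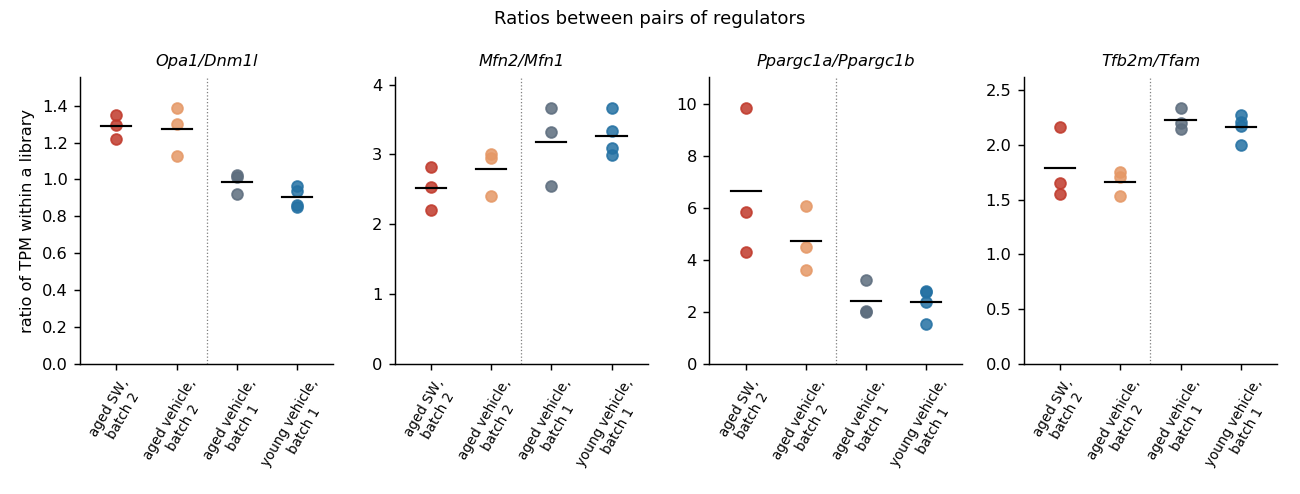
Points are ratios of TPM within 1 library, bars the group means, and the dotted line parts batch 2 (left) from batch 1 (right). Opa1/Dnm1l and Ppargc1a/Ppargc1b do not overlap between the batches, while Mfn2/Mfn1 does. Ratios of other gene pairs were not counted.

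The other genes of the network were read from 4 lists. With age, 0 of 22 regulators of biogenesis, 0 of 20 genes of mitochondrial DNA maintenance and transcription, 0 of 31 tested partners of fission and fusion and 0 of 18 mitochondrial enzymes and carriers passed in either direction by limma (0.455% of all tested genes). Their median differences were 0.18, 0.05, 0.04 and -0.08, beside 0.06 for all tested genes. Fis1, an adaptor of the outer membrane in fission, had 285, 273 and 313 TPM in aged muscle and 233, 231, 216 and 226 TPM in young muscle. Its libraries did not overlap, which was so for 11.6% of all tested genes in either direction. Its difference of 0.35 had the lowest adjusted p of the lists (0.0911 by limma). Camk2b, a calcium-dependent kinase upstream of PGC-1alpha, had 133.6, 147 and 106 TPM in aged muscle and 94.2, 107.7, 82.5 and 80.8 TPM in young muscle, a difference of 0.49 (limma adjusted p = 0.146). Without aged replicate 4, which is its lowest aged library, the difference was 0.62 (limma adjusted p = 0.0471). Over all alternatives the limma adjusted p ran from 0.0072 to 0.999. The low end used the aged vehicle libraries of batch 2, where batch cannot be told apart from age, and the high end a block for replicate numbers. The authors' deposited table for age holds 4 genes of the lists, Camk2b with an adjusted p of 0.0301, Nrip1, a corepressor of nuclear receptors, with 0.00586, Apoo, a subunit of the cristae-organizing MICOS complex, with 0.0187, and Fam73a, an outer membrane protein of fusion, with 0.0197. By limma the last 3 differed by 0.57, -0.23 and 0.48 with age and did not pass (adjusted p = 0.764, 0.696 and 0.452). The other genes with the lowest p of their lists also did not pass. Differences were 0.44 for Prkag3, a subunit of the energy sensor AMPK, 0.36 for Tfb1m, a mitochondrial ribosomal RNA methyltransferase, 0.36 for Tk2, a mitochondrial thymidine kinase, and 0.27 for Stoml2, an inner membrane scaffold (limma adjusted p = 0.300, 0.438, 0.559 and 0.368). They were 0.32 for Acadm, an enzyme of fatty acid oxidation, and 0.28 for Tomm20, a receptor of protein import (limma adjusted p = 0.268 and 0.475).

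With SW033291 the 4 lists also held 0 called genes of 22, 20, 31 and 18 (0% of all tested genes). Their medians were -0.23, -0.14, -0.10 and 0.01, beside -0.13 for all tested genes. Yy1, a transcription factor that binds PGC-1alpha, had 10.5, 13.3 and 12.2 TPM with SW033291 and 18.4, 18.2 and 20.04 TPM with vehicle, and the difference of -0.62 had the lowest p of the lists but an adjusted p of 0.344 (limma). Slirp, an RNA-binding partner of Lrpprc in mitochondria, had 240, 285 and 231 TPM with SW033291 and 195, 196 and 190 TPM with vehicle. The difference was 0.37 (limma adjusted p = 0.418). Mterf1a, a termination factor of mitochondrial transcription whose near-identical copy Mterf1b makes its level uncertain, was listed at 0, 0.92 and 1.05 TPM with SW033291 and at 2.78, 1.44 and 2.44 TPM with vehicle (limma adjusted p = 0.397). The transcription factor Mef2d, March5 and the fission regulator Mtfr1 differed by -0.42, -0.34 and -0.31 (limma adjusted p = 0.508, 0.407 and 0.485). Pdk4 and Ucp3, genes of fatty acid use in fasting, differed by 1.14 and 1.03, but their vehicle libraries ran from 59.0 to 516 TPM and from 51.2 to 224 TPM (limma adjusted p = 0.534 and 0.512). Without vehicle replicate 8 alone, these differences were 0.22 and 0.35.

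Between the batches the lists held 5 called genes, 3 higher and 2 lower in aged vehicle muscle of batch 2 (2.25% of all tested genes). March5, a ubiquitin ligase of the outer membrane that acts on mitofusins and DRP1, had 81.0, 88.0 and 80.6 TPM in batch 2 and 53.5, 54.8 and 64.6 TPM in batch 1, a difference of 0.53 (limma adjusted p = 0.0249). Immt, the core of the cristae junction complex, was higher by 0.45 (limma adjusted p = 0.0413), and Lrpprc, which stabilises mitochondrial messenger RNA, by 0.63 (limma adjusted p = 0.0375). Apoo, another subunit of the cristae junction complex, fell to 124, 117 and 106 TPM in batch 2, against 218, 196 and 298 TPM in batch 1, a difference of -1.02 (limma adjusted p = 0.0105). Slc25a4, the ADP/ATP carrier of muscle, was lower by a difference of -0.33 (limma adjusted p = 0.0416). Under median-of-ratios scaling or quantile normalization the calls of March5, Immt and Lrpprc were lost, with adjusted p of 0.0550 to 0.192, and that of Slc25a4 was lost under quantile normalization (0.594). All 5 calls were lost without batch 2 replicate 3 (0.0514 to 0.187) and with only these 6 libraries in the fit (0.199 to 0.390).

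**Figure D5:**
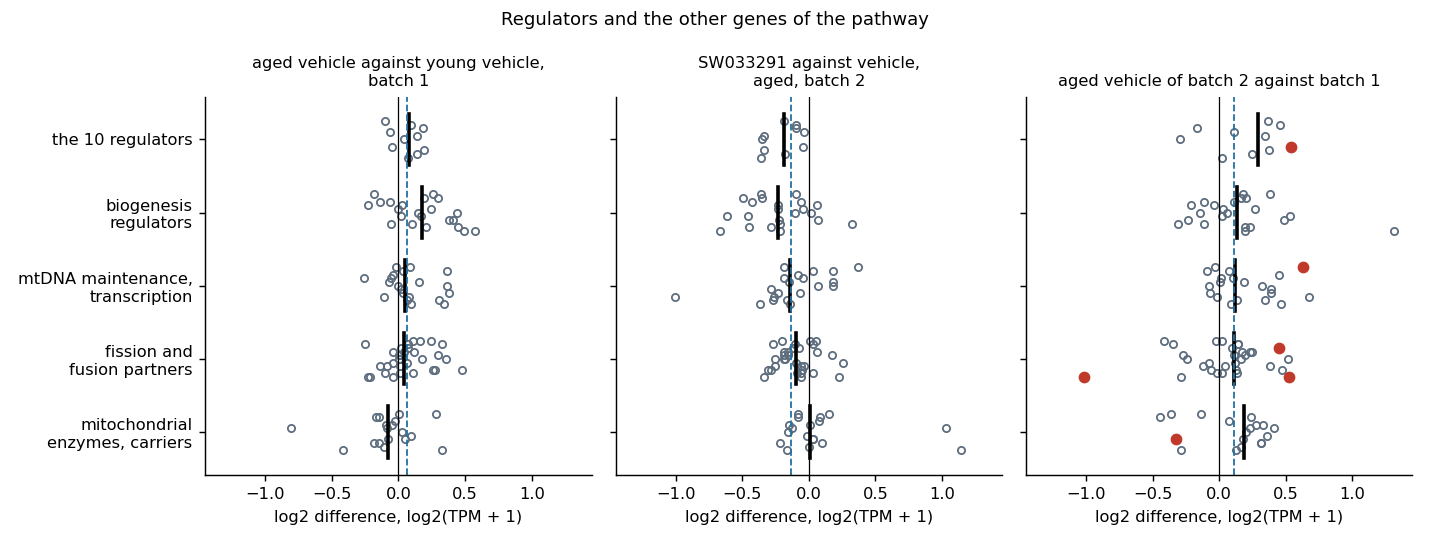
Points are the differences in log2(TPM + 1) of the 10 regulators and of the tested genes of the 4 lists, thick bars the medians, the dashed line the median of all tested genes and filled points an adjusted p of at most 0.05. Filled points occur between the batches only: Mfn1, Lrpprc, March5 and Immt to the right of 0, Apoo and Slc25a4 to the left.

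Genes whose log2(TPM + 1) ran most like a regulator over the 13 libraries were found by Pearson correlation, as a description over libraries that share batch and library composition. Mfn1 ran with Lrpprc (r = 0.965), Rint1 (0.950) and the complex I subunit Ndufs1 (0.948). Opa1 ran with Sbno1, Birc6 and Dusp11 (0.985, 0.982 and 0.980), Tfam with Ltn1, Traf6 and Ftx (0.969, 0.964 and 0.963) and Ppargc1a with Cse1l, Esr1 and Cep83 (0.942, 0.939 and 0.938). Of the genes found, Lrpprc and Ndufs1 belong to the 4 pathway lists, both beside Mfn1. Nrf1 ran with Irgm2, Spg11 and Aldh6a1 (0.971, 0.951 and 0.919), and Dnm1l with 0610010F05Rik, Sema3c and Usp45 (0.959, 0.954 and 0.954). Mfn2 ran with Sec24c, Ubap2l and Cad (0.936, 0.907 and 0.906), Tfb2m with Nadk2, Nudt21 and Serbp1 (0.921, 0.896 and 0.893), Esrra with C4b, Slco3a1 and G0s2 (0.912, 0.896 and 0.859) and Ppargc1b with Hscb, Dpm3 and Itga11 (0.871, 0.848 and 0.846). The r of Ppargc1b, the lowest regulator in level, were the smallest of the 10 sets.

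Among the regulators themselves, 31 of 45 pairs had a positive r over the 13 libraries and the median r was 0.298. Tfam and Opa1 were the most alike (0.895), followed by Ppargc1a and Opa1 (0.863) and Nrf1 and Opa1 (0.812). Esrra and Dnm1l were the least alike (-0.425). Ppargc1b, the other coactivator, had its lowest r with Mfn1 (-0.309). Replicate 4 of batch 1 and vehicle replicate 3 of batch 2 were the highest libraries of their batches for Tfam, Opa1, Ppargc1a, Nrf1 and Dnm1l alike, and their part in these r was not tested.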

How the data were processed

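RNA of 13 whole quadriceps libraries was analysed from 1 table of TPM that the authors deposited for 24015 genes. Each library has the same total, so depth is unknown. STAR, RSEM, DESeq2, DESeq and genome build mm9 are named in the submitters' processing notes, without versions or order. Further deposited tables by the authors hold a comparison of SW033291 against vehicle for 24013 genes and of aged against young vehicle for 813 genes. Per the file headers, these hold log2 fold changes with standard errors, p-values, a test statistic (a score) and a mean level of normalised counts (a signal). Which libraries entered them is not stated.

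In the deposited TPM table, names and values were out of step: batch 2 means had a Spearman correlation of -0.0177 with the mean levels of the authors' table. After 27 names turned into dates were undone and all names were sorted in byte order and assigned to the values as they stand, it was 0.960 across 23978 genes. Every value rests on this order.

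log2(TPM + 1) of 11876 genes (at least 3 libraries with 1 TPM or more) was fitted with limma 3.58.1 in R 4.3.3 (1 coefficient per group over all 13 libraries, trend on expression). The Benjamini-Hochberg adjustment ran over all tested genes in each of 3 comparisons, with 0.05 as the threshold. Groups and batches came from the labels. On simulated data for 11876 genes, log2 changes of 1 were recovered in 63% of genes for age, 54% for SW033291 and 55% between batches. Of the genes called there, 3.82%, 6.09% and 4.35% were false. The noise was drawn for each gene on its own, so shifts that the genes of a library share were not simulated. Changes smaller than 1 were not simulated either, so the recovery of differences as small as those of the regulators is not known.

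The 10 regulators, the 4 pathway lists and the 9 marker lists were chosen with earlier results of these data known. All regulators are named. From the pathway lists, a gene was named when called in any comparison or when among the 2 lowest p of a list with age or SW033291, and the 3 genes most like each regulator were named. The alternatives were other pseudocounts, filters and scalings, fewer groups in the fit, no trend, each library left out, a replicate block and an age comparison that used the aged vehicle libraries of batch 2. Numbers in the titles did not pair libraries: the groups shared 2 numbers at most, and the deviations of same-numbered libraries had correlations of -0.147 to 0.171 across genes. Promoters came from RefSeq on GRCm38.p6 and were matched by symbol, with those of 1 regulator not used here.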

Additional observations from a re-analysis of the deposited data

Results flagged for a closer look

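Only the young vehicle group, with 4 libraries, was large enough to check for a library far from the others; the groups of 3 were not checked. Of 47 values checked there, 4 stood out, where chance gives about 1 in 20. Tfb2m was 55.0 TPM in young vehicle replicate 3, and its gap to the next library took 0.919 of the range of the group. Apoo was 225 TPM in replicate 1, and the gap to the next library above took 0.919 of the range. The summed TPM of the slow and oxidative fibre markers was 136 in replicate 4, with a gap of 0.883 of the range. The summed TPM of the red cell markers was 67.7 in the lowest young library, with a gap of 0.877 of the range.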

How the results depend on the processing

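For all tested genes called with age (54), the count was 27 with no filter, 24 with only the 2 groups in the fit, 31 with no trend, 6 with the replicate block, 19 to 92 without 1 library (19 without young replicate 1 or aged replicate 2, 21 and 26 without young replicates 5 and 4, 92 without aged replicate 4) and 1679 when batch 2 supplied the aged vehicle libraries. There 2 of the 10 regulators passed, Mfn1 and Opa1, but batch cannot be told apart from age. The 44 higher and 10 lower of the 54 calls became 35 and 28 without the 20 most abundant genes, where the median of the 10 regulators was -0.0086. With SW033291 (0) it was 4 at a pseudocount of 0.1 TPM, 1 with no trend and 0 to 1 without 1 library, and no regulator passed. Between batches (267) it was 152 under median-of-ratios scaling, 98 under quantile normalization, 1 with only 2 groups, 112 with no trend, 905 with the replicate block and 18 to 1643 without 1 library (18 without batch 1 replicate 2, 21 without batch 2 replicate 2 or 3, 478 without batch 2 replicate 8, 1643 without batch 1 replicate 4). The 204 higher and 63 lower calls became 49 and 103 under median-of-ratios scaling and 53 and 45 under quantile normalization. The count of regulators called (1, Mfn1) was 0 with no filter, median-of-ratios scaling, quantile normalization, 2 groups or no trend, 2 with the block and 0 to 3 without 1 library. The block changed no other call of a regulator; SW033291 and vehicle libraries share no numbers.

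No regulator whose sign reversed passed the threshold, except Mfn1, at 0.49 with age when batch 2 supplied the aged libraries. That setting also gave -0.25 for Ppargc1b, 0.053 for Esrra and 0.26 for Mfn2. With age, Ppargc1b and Dnm1l were -0.0069 and -0.00033 under median-of-ratios scaling, -0.0079 and -0.0056 under quantile normalization and -0.028 and -0.026 without the 20 most abundant genes, and Esrra and Mfn1 were 0.037 and 0.017 with the block. With SW033291, Ppargc1a, Tfb2m, Esrra and Mfn1 were 0.036, 0.050, 0.11 and 0.10 under median-of-ratios scaling and 0.059, 0.023, 0.082 and 0.057 under quantile normalization, and Esrra and Mfn1 were 0.013 and 0.0039 without the 20 most abundant genes. Between batches, Esrra was -0.029 and Dnm1l -0.12 under median-of-ratios scaling, Dnm1l -0.084 under quantile normalization and Ppargc1b 0.0028 with the block. Without 1 library, the differences with age ran from -0.056 to 0.13 for Ppargc1b, -0.16 to 0.24 for Ppargc1a, -0.013 to 0.23 for Tfam, -0.25 to 8.3e-05 for Mfn2, -0.046 to 0.33 for Opa1, -0.22 to 0.23 for Dnm1l and -0.098 to 0.032 for Mfn1. Those with SW033291 ran from -0.26 to 0.13 for Ppargc1a, -0.14 to 0.079 for Mfn1 and -0.084 to 0.020 for Esrra, and that of Dnm1l between batches from -0.14 to 0.31. The cause of these changes was not tested. TPM keep no depth, so counting error could not be set beside any of these values.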

Other observations

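Marker lists of the cells that whole muscle can hold were summed per library, as levels and not as numbers of cells. With age in batch 1, Col1a1 and Col3a1, collagens of the 6 fibro-adipogenic progenitor markers, were lower in aged muscle by differences of -2.17 and -1.96 (limma adjusted p = 0.0155 and 0.0314). The list summed to 141 to 361 TPM in aged muscle and to 366 to 428 TPM in young muscle. Between the batches, the fast fibre myosin Myh4 was higher in aged vehicle muscle of batch 2 by 1.21 (limma adjusted p = 0.0061), and Cox8b, a cytochrome oxidase subunit listed with brown fat that muscle also expresses, was lower by a difference of -0.50 (limma adjusted p = 0.0184). The globin genes Hba-a1 (with age) and Hbb-bs (between batches) also passed, but near-identical copies share their reads, so they are uncertain. No marker of neutrophils, adipocytes, endothelium, macrophages or slow fibres passed in any of the 3 comparisons.

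Adipocyte markers summed to 703 to 3513 TPM with SW033291, 521 to 749 TPM in aged vehicle muscle of batch 2, 651 to 1236 TPM in aged vehicle muscle of batch 1 and 552 to 3039 TPM in young vehicle muscle. Endothelial markers summed to 67.0 to 150.2 TPM and macrophage markers to 20.7 to 76.3 TPM over the 13 libraries. Red cell markers ran from 67.7 to 1351 TPM, both within batch 1.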
